A study of Mus musculus with 18 samples.

Results

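The genes described here were switched on in CT26-NY-ESO-1 tumours and switched off in CT26 tumours when neither was treated. A gene was a member where its abundance was at least 5 TPM in each of the 3 untreated CT26-NY-ESO-1 libraries and under 0.5 TPM in each of the 3 untreated CT26 libraries. TPM is an abundance per transcript length with a fixed total per library, so levels can be set side by side between genes. Of 55291 genes in the table, 40 met both thresholds, 2 were left out by name, and 38 remained. The untreated levels of these 2 tumour types chose the members, so they are given below as a description and are not tested. The libraries treated with the bacterial preparation OK-432 and all libraries of the LL2 tumours took no part in the choice.

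Bulk RNA sequencing covered 18 libraries in 6 groups of 3, from tumours that were grown under the skin of mice and removed on day 14. CT26 is a mouse colon carcinoma line, CT26-NY-ESO-1 (CT26NYESO1) carries in its name a human antigen that is found in tumours and testis, and LL/2 (LL2) is the Lewis lung carcinoma line. The hosts were BALB/cJ or C57BL/6J mice, and the labels do not state which strain carried which tumour. The groups are CT26_Ctrl, CT26NYESO1_Ctrl and LL2_Ctrl without OK-432, and CT26_OK432, CT26NYESO1_OK432 and LL2_OK432, in which OK-432 was put into the tumour for 24 hours. OK-432 is a killed preparation of Streptococcus pyogenes used to stimulate innate immunity. The sources used here do not give what the controls received, how the antigen was introduced or whether CT26-NY-ESO-1 is 1 clone. Nor do they state that libraries of a group are separate animals, so each p-value measures library-to-library spread that may be technical. A tumour library mixes cancer cells with host cells, and fewer cells of a type and less RNA per cell cannot be told apart.

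Several kinds of protein meet in this set. Transcription factors such as Pax6, Irx1 and Foxa1 set the fate of tissues in the embryo and are usually silent outside the organs they pattern. Synaptotagmins, RIM and Unc13 proteins prepare vesicles in neurons and endocrine cells and fuse them with the membrane when calcium enters through voltage-gated channels. Neurofilament subunits stiffen axons, keratins form the matching scaffold of epithelial cells, and secreted factors such as Fgf10 and Tgfa act on neighbouring epithelium. Such genes are often kept silent or active through the state of the DNA and chromatin at their start sites.

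Every library sums to 1000000 TPM, a scale that hides depth, and how many reads a value rests on is unknown. Between 24036 and 25858 genes were above 0 in each library. Of the intestinal markers, Cdx1 was listed at 0 in every CT26 and CT26NYESO1 library, while Cdx2 averaged 1.05 and 0.761 TPM in CT26NYESO1_Ctrl and CT26NYESO1_OK432 and 0.017 and 0 TPM in CT26_Ctrl and CT26_OK432. Without the member Krt18, the intestinal markers summed to 6.66 to 24.1 TPM in CT26NYESO1_Ctrl, 8.06 to 9.53 in CT26NYESO1_OK432 and 1.2 to 2.22 TPM in the CT26 libraries. Krt20 made up most of the CT26NYESO1 sums, with 5.09 to 21.6 TPM in CT26NYESO1_Ctrl. Between CT26NYESO1_Ctrl and CT26_Ctrl, Epcam averaged 0.172 and 0 TPM and Cdh1 0.948 and 0.965. Vil1 (0.0637 and 0.247 TPM) and Krt8 (0.039 and 0.149) went the other way. The part of the intestinal markers in the results was not tested. The lung transcription factor Nkx2-1 was listed at 0 in all libraries. Libraries differed in muscle: the 6 skeletal muscle markers summed to 131.2 TPM in CT26_OK432 replicate 1, 20.6 in replicate 2 and 3.35 in replicate 3. The CT26_OK432 replicate 1 library also held the highest of the 3 values for 36 of the 38 members, and the part of muscle in this was not tested. Fibroblast markers summed to 703 to 889 TPM in CT26_OK432 and 341 to 501.5 in CT26NYESO1_OK432, and endothelial markers to 256 to 330.1 and 67.4 to 91.9 TPM. The fibroblast markers did not move together. Between these groups Pdgfra averaged 319 and 21.1 TPM, Pi16 65.9 and 6.12 and Lum 31.8 and 14.2 TPM. Dcn (333 and 331 TPM) and Fap (2.53 and 2.42) were alike, while Dpt (8.58 and 17.1) and Thy1 (21.7 and 42.1) went the other way. Which cells carried these markers was not measured, and the part of host cells in the results below was not tested.

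In the treated tumours, the libraries that took no part in the choice, the 38 genes stayed high in CT26NYESO1 and low in CT26. These libraries come from the same tumour types whose untreated levels chose the members. The direction of the calls below therefore follows largely from the choice and is no independent support. All 38 passed the test as higher in CT26NYESO1_OK432 than in CT26_OK432 (limma, adjusted p under 0.05), where 20.9% of the 16816 genes tested were called higher and 45.6% lower. The values of the 3 libraries against 3 did not overlap for any of the 38, all in the higher direction, against 22.3% of genes tested that lay apart as higher and 47.6% as lower. Differences are given on the log2(TPM + 1) scale, which understates changes of low genes. The members' median difference was 3.16, from 2.51 for Zfp986 to 4.40 for Fer1l6, and the median over all genes tested was −0.20. Of all calls, 31.5% were higher, and 49% after the libraries were rescaled by median of ratios, which moved the median over all genes to −0.0048 and that of the members to 3.29. The untreated libraries of both tumour types are not compared here, but they enter the shared estimate of each gene's spread.

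The levels were moderate. Mean abundance in CT26NYESO1_OK432 ran from 5.14 to 23.9 TPM, with a median of 9.34, while the median of all genes tested was 14.4 TPM. Of the 38 genes, 18 were above 10 TPM there and 2, Fer1l6 and Scara3, above 20 TPM. By the thresholds of the choice, 37 were still on in all 3 treated CT26NYESO1 libraries, and Zfp986 fell just outside with 4.55 TPM in replicate 2. In CT26_OK432, 33 were still off in all 3 libraries and 5 reached 0.5 TPM in at least 1. Taken library by library, 32 genes met both thresholds in the treated tumours.

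**Figure D1:**
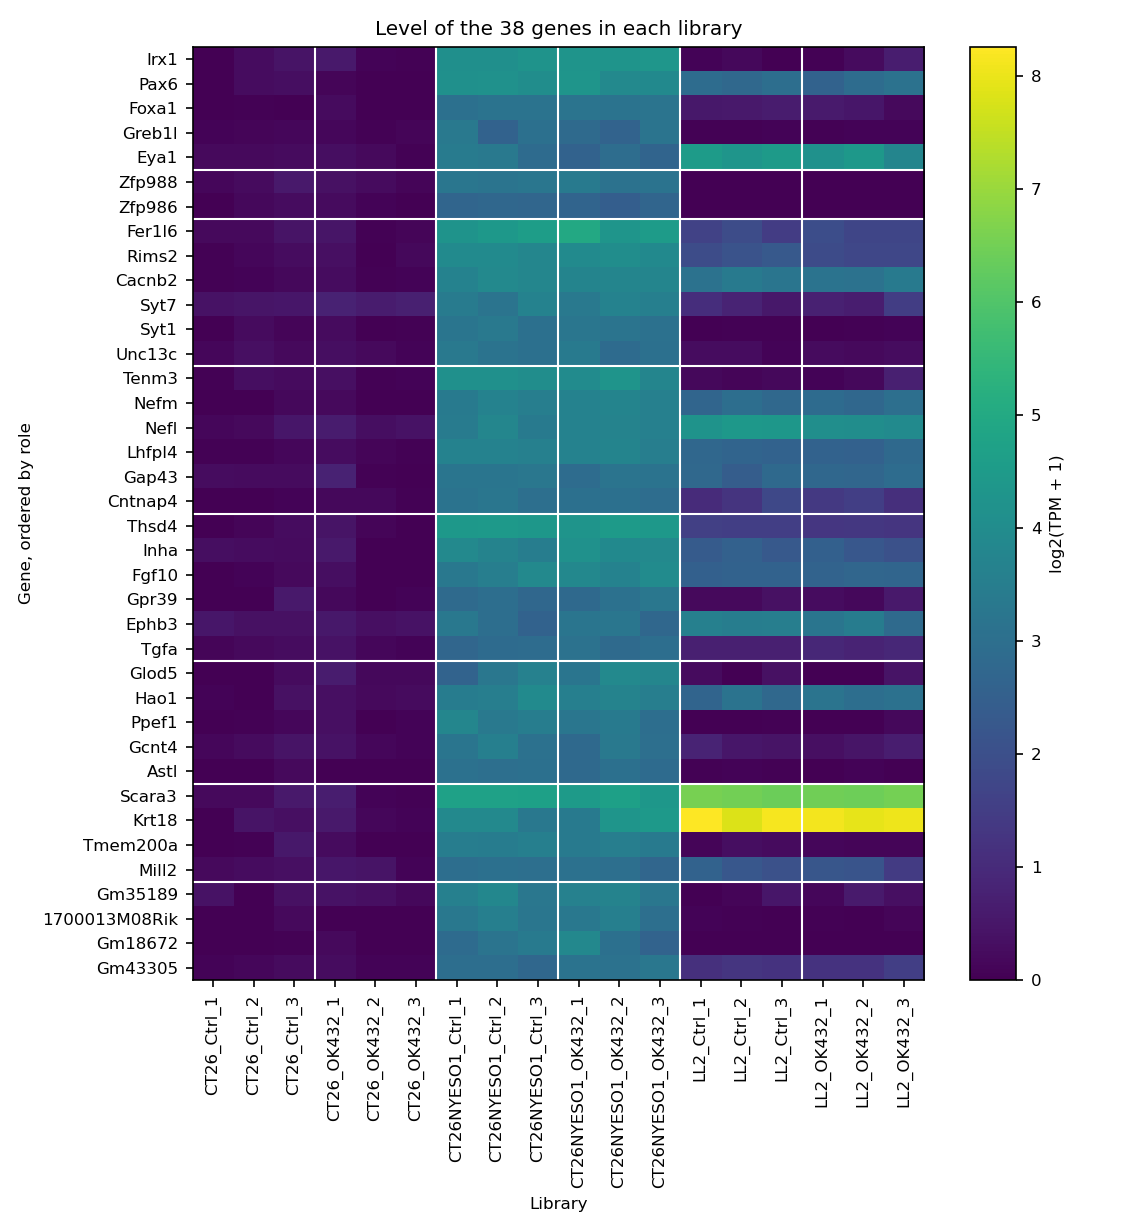
Abundance of the 38 genes (rows, ordered by role, white lines between roles) in the 18 libraries (columns, white lines between groups), as log2(TPM + 1) on the colour scale. The 6 CT26 columns are dark throughout, the 6 CT26NYESO1 columns are bright in all rows, and the 6 LL2 columns are mixed, with Krt18 and Scara3 the brightest.

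Among the regulators of development, Irx1, an Iroquois homeobox factor, and Pax6, a master regulator of eye and forebrain, had the highest levels. Irx1 measured 16.2, 16.4 and 17.9 TPM in CT26NYESO1_Ctrl and 18.5, 18.4 and 19.4 TPM in CT26NYESO1_OK432, and 0.487, 0.0637 and 0.0387 TPM in CT26_OK432. Each treated CT26NYESO1 library was above each untreated one, and none of the CT26 libraries came near them. The treated difference was 4.07 (SE 0.163, limma adjusted p = 1.38e-12). Pax6 measured 18.6, 13.9 and 14 TPM in CT26NYESO1_OK432 and was listed at 0 in 2 of the 3 CT26_OK432 libraries, with 0.0894 TPM in the other. Foxa1, a pioneer factor of endoderm that opens closed chromatin, varied little in CT26NYESO1, with 7.99, 7.77 and 7.96 TPM in CT26NYESO1_OK432. Eya1, a phosphatase and transcriptional coactivator, measured 5.09, 6.75 and 5.33 TPM in CT26NYESO1_OK432 and 9.9, 9.09 and 6.36 TPM in CT26NYESO1_Ctrl, with overlapping ranges. Greb1l, needed for kidney and inner ear development, spread from 5.25 to 8.05 TPM in CT26NYESO1_OK432.

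The homeobox and T-box genes outside the Hox clusters, a list that holds Pax6 and Irx1, did not move as one. Of its 30 genes tested, 11 were called higher and 11 lower in CT26NYESO1_OK432 than in CT26_OK432 (limma), with a median of 0.02. Over all genes tested 20.9% were called higher and 45.6% lower, with a median of −0.20. After median-of-ratios rescaling the counts of the list were 13 and 9. Besides Pax6 and Irx1, 9 of 28 genes were higher. Msx1, a homeobox factor of limb and face, averaged 15.7 TPM in CT26NYESO1_OK432 and 0.736 TPM in CT26_OK432, a difference of 3.28 (limma adjusted p = 1.18e-11), and was no member because untreated CT26 averaged 1.05 TPM. Pax2 was also higher, by 1.84, at 2.66 TPM in CT26NYESO1_OK432, under the threshold of 5 TPM. Irx2, the neighbour of Irx1 in its gene cluster, was expressed in both tumours, at 30.8 and 15.2 TPM, a difference of 0.97 (limma adjusted p = 1.01e-07). In the other direction Tbx18 averaged 17.8 TPM in CT26_OK432 and 0.423 TPM in CT26NYESO1_OK432. In the same groups Dlx2 averaged 9.57 and 0.0185 TPM, a difference of −3.38, and En1 11.5 and 0.343 TPM, a difference of −3.22.

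Genes assigned by hand to calcium-triggered vesicle release formed a group of 6, and the role of Fer1l6 in it was not tested. Fer1l6, of the ferlin family of membrane proteins with C2 domains, had the highest mean of the whole set in the treated tumours, with 30.9, 18.8 and 22 TPM in CT26NYESO1_OK432 and 0.384, 0.023 and 0.0839 TPM in CT26_OK432. The first of these CT26NYESO1 libraries stood above the other 2, and all 3 were far above CT26. The difference was 4.40 (SE 0.173, limma adjusted p = 1.08e-12) and stayed between 4.21 and 4.55 when any 1 library was left out. Rims2, a scaffold of the release site, held a narrow range of 14 to 15.4 TPM in the treated and 13 to 14.6 TPM in the untreated CT26NYESO1 libraries. Cacnb2, a β subunit of voltage-gated calcium channels, was equally steady at 12.1, 12.7 and 12.6 TPM in the treated libraries. Of the calcium sensors, Syt7 averaged 10.6 ± 1.38 TPM and Syt1, the sensor of fast release in neurons, 7.96 ± 0.464 TPM (SD, n = 3) in CT26NYESO1_OK432. Unc13c, which primes vesicles, ranged from 6.33 to 9.45 TPM there.

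Syt7 was the member with the clearest trace in CT26. Its 3 treated CT26 libraries held 0.732, 0.558 and 0.659 TPM and its untreated ones 0.332, 0.382 and 0.41 TPM. Each treated value was above each untreated one. The untreated values had to be under 0.5 TPM for Syt7 to be chosen, so this is a description. In the CT26_OK432 replicate 1 library, Gap43 reached 0.732 TPM, Scara3 0.589, Glod5 0.56 and Nefl 0.54 TPM, while each of these was under 0.5 TPM in the other 2. The 38 members together summed to 11.4 TPM in that library, against 3.53 and 3 TPM in replicates 2 and 3. In CT26_Ctrl the sums were 2.98, 4.58 and 8.74 TPM, and the third of these libraries held the highest value for 29 of 38 members. As a share of the mean sum in CT26NYESO1 under the same treatment, the highest 2 of these 6 sums were 2.74% and 2.14%, and the other 4 were between 0.721% and 1.12%.

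**Figure D2:**
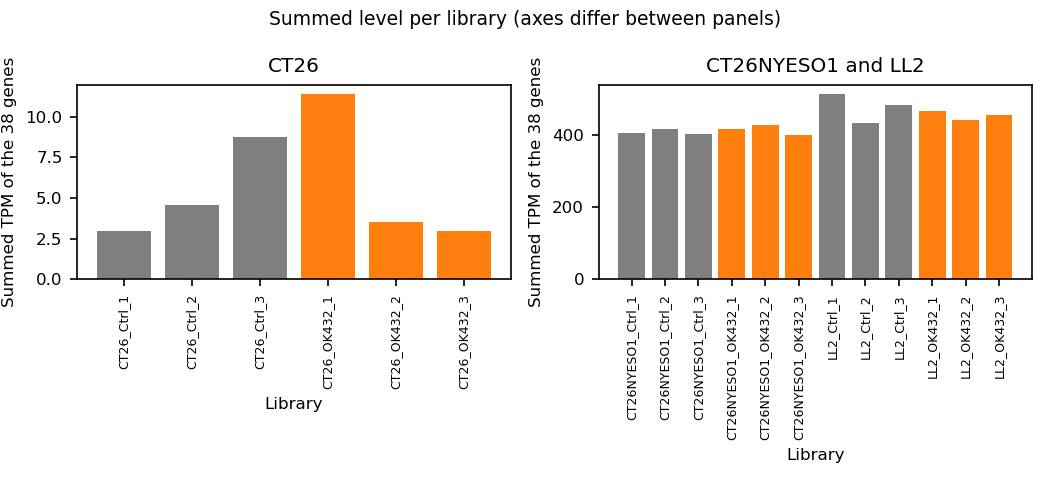
Summed TPM of the 38 genes in each library, CT26 on the left and CT26NYESO1 and LL2 on the right, with a different vertical axis in each panel (grey without OK-432, orange with it, 1 bar per library). CT26_OK432 replicate 1 (11.4 TPM) and CT26_Ctrl replicate 3 (8.74 TPM) are the highest CT26 bars, while the CT26NYESO1 bars lie between 401 and 428 TPM and the LL2 bars between 433 and 515 TPM.

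A second group of 6 shapes neurons and their contacts. Tenm3, a teneurin that guides the matching of axons to their targets, measured 14.8, 18.6 and 12.5 TPM in CT26NYESO1_OK432 and at most 0.256 TPM in CT26_OK432. Nefm and Nefl, the medium and light neurofilament subunits, were nearly equal: Nefm measured 11.5, 12.3 and 11.1 TPM and Nefl 11.5, 11.9 and 11 TPM in the same libraries. They overlap on opposite strands of chromosome 14, Nefm at chr14:68082590-68124846 and Nefl at chr14:68083863-68089095 (mm10), and no source states how strand was treated in counting, so reads of one may be counted for the other. Lhfpl4, which anchors GABA-A receptors at inhibitory synapses, averaged 11.5 ± 0.837 TPM, Gap43, a protein of growing axon tips, 7.55 ± 0.817 TPM, and Cntnap4, a cell adhesion protein of the neurexin superfamily, 7.06 ± 0.28 TPM (SD, n = 3).

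The neuron markers beside them were uneven. Of 5 markers, Syt1 is itself a member and Tubb3, neuronal β-tubulin, was called higher, at 14.4 TPM in CT26NYESO1_OK432 and 2.09 TPM in CT26_OK432, a difference of 2.33 (limma adjusted p = 3.91e-08). Snap25, the partner of synaptotagmin in membrane fusion, was listed at 0 in every CT26 and CT26NYESO1 library, Elavl4 did not exceed 0.0315 TPM, and Stmn2 was 0.127 TPM in CT26NYESO1_OK432 against 0.782 TPM in CT26_OK432. Without Syt1 the markers summed to 12.9 to 16.8 TPM in CT26NYESO1_OK432 and 1.88 to 3.42 TPM in CT26_OK432.

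The secreted and receptor genes were led by Thsd4, a thrombospondin-repeat protein of the fibrillin matrix, with 18.2, 21.5 and 19.9 TPM in CT26NYESO1_OK432 and 0.363, 0.0808 and 0.0104 TPM in CT26_OK432. Its difference was 4.19 (SE 0.115, limma adjusted p = 1.16e-14). Inha, the inhibin α subunit that opposes activin, measured 17.2, 14.1 and 13.9 TPM in CT26NYESO1_OK432 and 13.9, 11.9 and 10.3 TPM in CT26NYESO1_Ctrl. These ranges met within rounding and did not overlap. Fgf10, a mesenchymal signal for branching of lung and other epithelia, averaged 13.3 ± 1.49 TPM, and Tgfa, a ligand of the EGF receptor, 6.95 ± 0.731 TPM (SD, n = 3). Gpr39, a zinc-sensing receptor, and Ephb3, a receptor for B-type ephrins, averaged 7.46 and 7.45 TPM.

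The lists these genes belong to held calls in both directions. Of 6 genes of the FGF ligands and receptors tested, Fgf10 was the 1 called higher in CT26NYESO1_OK432 (limma), and 3 were called lower: the receptor Fgfr1 averaged 41.5 TPM against 308 TPM in CT26_OK432, a difference of −2.88, Fgf7 50.2 against 122 TPM, and Fgf21 0.0756 against 4.21 TPM. The median of this list was −0.77. Of 28 axon guidance ligands and receptors, the list that holds Ephb3, 6 were higher and 17 lower, with a median of −0.62, beside 20.9% higher, 45.6% lower and a median of −0.20 over all genes tested. Besides the member Ephb3, 5 of 27 axon guidance genes were higher. After median-of-ratios rescaling the counts for axon guidance were 8 and 14, and those for FGF were unchanged.

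Krt18, a keratin of simple epithelia, measured 9.29, 18.8 and 21.3 TPM in CT26NYESO1_OK432 and at most 0.465 TPM in CT26_OK432. The first of these libraries was well under the other 2, and the spread (SD 6.33 TPM, n = 3) was the widest of the members in CT26NYESO1_OK432, next to that of Fer1l6 (SD 6.28 TPM). Krt18 usually pairs with Krt8, and Krt8 was near 0 in these tumours: 0.0757 TPM in CT26NYESO1_OK432 and 0.0686 TPM in CT26_OK432. Krt20, another keratin of the gut lining, averaged 6.54 TPM in CT26NYESO1_OK432 and 0.0741 TPM in CT26_OK432, and missed the choice because its highest untreated CT26 value was 0.503 TPM. Of 4 keratins tested, 3 were called higher in CT26NYESO1_OK432 (limma) and 0 lower, also after rescaling. Krt18 is itself a member, and besides it 2 of 3 were higher before rescaling, Krt20 among them. Among all genes tested, before rescaling, 20.9% were called higher and 45.6% lower. The epithelial adhesion gene Epcam stayed at or under 0.304 TPM in all CT26NYESO1 libraries.

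Scara3, a scavenger receptor family member that protects cells from oxidants, measured 21.4, 24.9 and 19.9 TPM in CT26NYESO1_OK432 and 0.589, 0.0613 and 0.0455 TPM in CT26_OK432. Its difference was 4.25 (SE 0.135, limma adjusted p = 7.46e-14). Mill2, an MHC class I-like molecule, averaged 6.71 TPM and Tmem200a, a transmembrane protein of unclear role, 9.72 TPM. The enzymes came from unrelated pathways. Glod5, a glyoxalase-domain protein, measured 8.35, 13.7 and 12.7 TPM in CT26NYESO1_OK432 and 5.2, 8.6 and 11.3 TPM in CT26NYESO1_Ctrl, with overlapping ranges. Hao1, the peroxisomal glycolate oxidase of liver, averaged 11.1 ± 0.823 TPM. Ppef1, a phosphatase with calcium-binding EF hands, averaged 8.3 ± 1.29 TPM and Gcnt4, which branches O-glycans, 7.47 ± 1.6 TPM (SD, n = 3). Astl, the egg protease that hardens the zona pellucida after fertilisation, measured 6.04, 7.25 and 6.39 TPM and was listed at 0 in all 3 CT26_OK432 libraries.

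The remaining members are zinc finger genes and transcripts without a known role. Zfp988 averaged 8.26 TPM and Zfp986 5.14 TPM in CT26NYESO1_OK432, and they lie 1405699 bases apart on chromosome 4, at chr4:147305674-147333734 and chr4:145868794-145899975 (mm10). This region carries many similar zinc finger genes, so reads may have been divided between copies and both values are uncertain. The genes on each side of Zfp988 were also called higher, Gm13147 by 5.18 and Zfp978 by 1.97. Gm18672, a processed pseudogene, had the loosest values of the set relative to its level, with 13.4, 7.24 and 5.24 TPM, and its reads may belong to a parent gene. Gm35189 (a long intergenic RNA) and Gm43305 (a processed transcript) averaged 10.6 and 8.06 TPM. 1700013M08Rik lies antisense within Arhgap24, which was itself measured: Arhgap24 averaged 2.01 TPM in CT26NYESO1_OK432 and 9.92 TPM in CT26_OK432, and 1700013M08Rik 8.96 and 0.00568 TPM. With the strand treatment unknown, reads of this pair may also have been exchanged, and both values are uncertain.

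**Figure D3:**
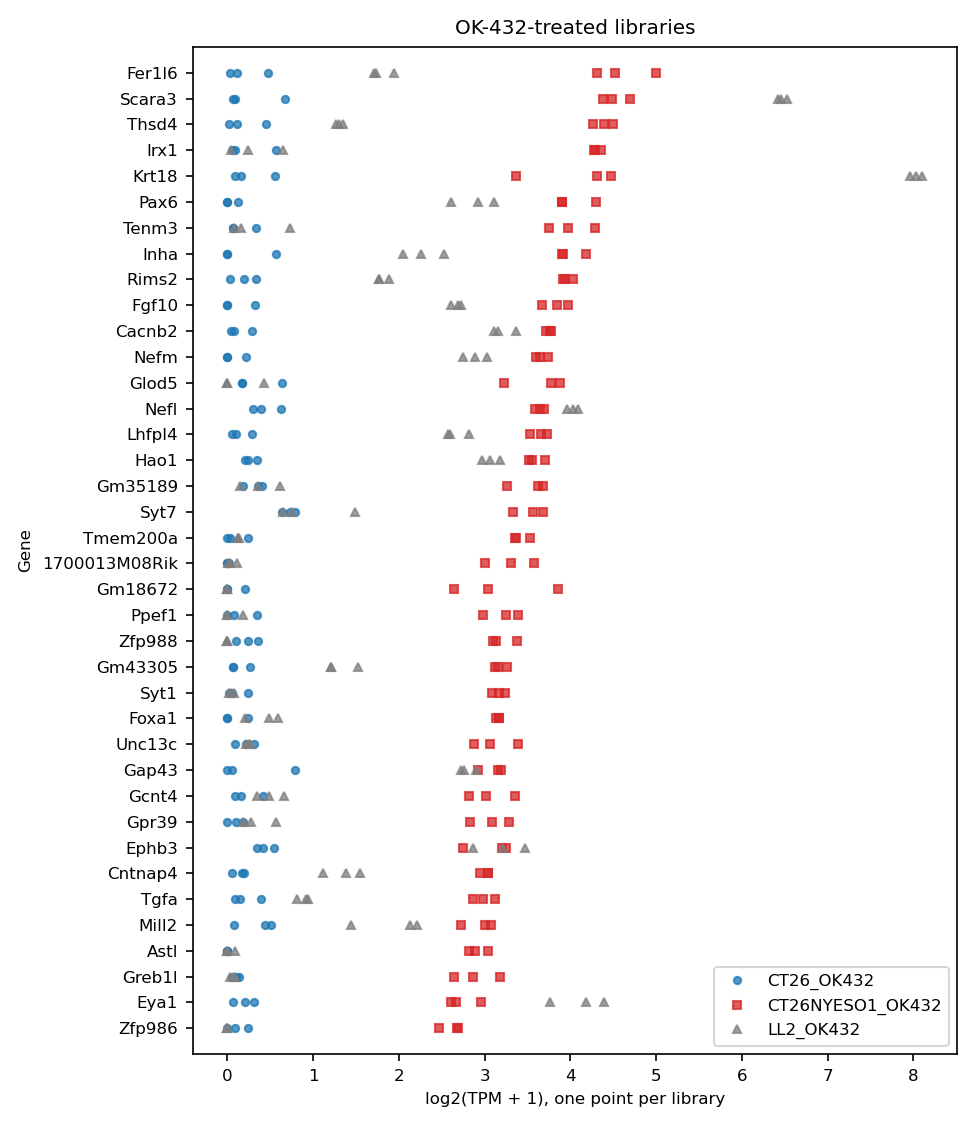
Level of each of the 38 genes in the 9 OK-432-treated libraries, as log2(TPM + 1), 1 point per library, genes ordered by their mean in CT26NYESO1_OK432. For each gene the 3 CT26NYESO1 squares lie to the right of the 3 CT26 circles, while the LL2 triangles fall with one group, with the other, between them or, for Krt18, Scara3, Eya1 and Nefl, to the right of both.

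The members had similar values with and without OK-432. In CT26NYESO1 the difference between treated and untreated libraries, given without a test because the untreated values chose the members, had a median of −0.03 on the log2(TPM + 1) scale and ran from −0.48 for Eya1 to 0.46 for Glod5. The members' sums were 406, 418 and 403 TPM in CT26NYESO1_Ctrl and 418, 428 and 401 TPM in CT26NYESO1_OK432, so the groups overlapped. Neutrophil markers summed to 10.5 to 16.9 TPM in the untreated and 80.5 to 678 TPM in the treated libraries of this tumour type.

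In LL2, which took no part in the choice, the effect of OK-432 could be tested. None of the 38 members was called between LL2_OK432 and LL2_Ctrl (limma), where 0.0119% of genes tested were called higher and 0.00595% lower, 3 genes in all. Before adjustment 2 members passed 0.05, Rims2 with a difference of −0.30 (limma adjusted p = 0.829) and Nefl with −0.31 (limma adjusted p = 0.852). The members' median was 0.00, from −0.36 for Ephb3 to 0.23 for Irx1. Of the members, 15 were off in LL2_Ctrl, and among them Zfp986, Zfp988 and Gm18672 were listed at 0 in every LL2 library. Those listed at 0 could not be called, and the others that were off had little level to lose. The test therefore says little about these 15. With only 3 genes called in all, the lack of calls says little about the other members either. Nefl measured 16, 15.4 and 14.5 TPM in LL2_OK432 and 18.1, 20 and 19.6 TPM in LL2_Ctrl, without overlap. In all, 4 members lay apart in the lower direction, against 5.17% of genes tested, and 2 in the higher, against 4.7%.

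The LL2 tumours divided the set. By the same thresholds 10 of the 38 genes were on in all 3 LL2_Ctrl libraries, 15 were off in all 3 and 13 lay between. Over all 55291 genes, 19.6% were on in LL2_Ctrl and 68.3% off. Of the 10793 genes that were on in CT26NYESO1_Ctrl, 93.1% were also on in LL2_Ctrl and 0.834% were off, while of the members 26.3% were on and 39.5% off. The members had also to be off in CT26_Ctrl, which was not asked of the 10793 genes. The lower share of members on in LL2_Ctrl may therefore follow in part from the choice, which was not tested. In LL2_OK432 11 members were on, 12 off and 15 between.

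The 10 genes on in untreated LL2 came from most of the roles. Krt18 was highest, with 305, 227 and 283 TPM in LL2_Ctrl, and here its partner Krt8 was present at 204 TPM. Scara3 followed with 94.7, 88.7 and 83.2 TPM, then Eya1 with 22.1, 18.8 and 21.6 TPM and Nefl with 18.1, 20 and 19.6 TPM. The ranges of Krt18, Scara3 and the other 2 were apart, while those of Eya1 and Nefl overlapped. Ephb3 averaged 10.7 ± 0.368, Cacnb2 8.49 ± 0.951, Pax6 6.52 ± 0.539, Hao1 6.38 ± 1.38, Nefm 6.1 ± 0.739 and Lhfpl4 5.38 ± 0.311 TPM (SD, n = 3), and of these the range of Ephb3 lay above the others. Hao1 and Nefm overlapped with Pax6 and with Lhfpl4, which lay apart from each other. Nefl was well above Nefm in LL2, although the pair was nearly equal in CT26NYESO1.

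The 15 genes off in LL2_Ctrl were Irx1, Greb1l, Tenm3, Syt1, Unc13c, Gpr39, Glod5, Ppef1, Astl and Tmem200a, with the 2 zinc finger genes and 3 of the 4 uncharacterised transcripts. Zfp986, Zfp988 and Gm18672 were listed at 0 in all 6 LL2 libraries. Irx1 measured 0.0576, 0.129 and 0 TPM in LL2_Ctrl, and Tenm3 0.124, 0.0823 and 0.121 TPM. Both were over 0.5 TPM in 1 treated library, LL2_OK432 replicate 3, with 0.57 and 0.66 TPM, which moved them to the class between. The third gene that moved there, Gm35189, did so through LL2_OK432 replicate 2, with 0.529 TPM. The skeletal muscle markers summed to 337 TPM in replicate 3, 26.6 in replicate 1 and 93.9 TPM in replicate 2, and their part in this was not tested. Among the 13 genes between, Fgf10 (4.75, 5.1 and 5.08 TPM) and Gap43 (5.92, 4.47 and 6.14 TPM) missed the upper threshold in 1 library, and Foxa1 (0.433, 0.475 and 0.532 TPM) missed the lower.

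**Figure D4:**
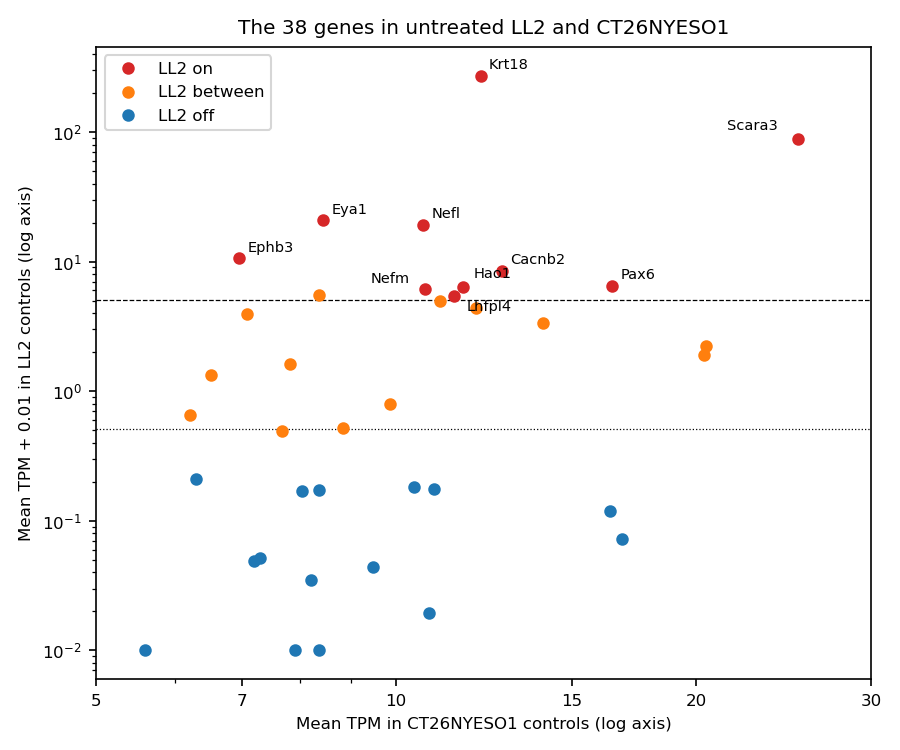
Mean TPM of each of the 38 genes in untreated CT26NYESO1 (horizontal, log axis) and mean TPM + 0.01 in untreated LL2 (vertical, log axis), coloured by LL2 state. The lines mark 5 TPM (dashed) and 0.5 TPM (dotted) on the vertical axis, the 10 named genes are on in all 3 LL2_Ctrl libraries, and the lowest 3 points are listed at 0 in LL2.

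Against treated CT26, 21 of the 38 genes were called higher in LL2_OK432 and 0 lower (limma), beside 28.9% and 40.4% of all genes tested, and 17 did not pass. The libraries did not overlap for 21 members that were higher and 1 that was lower, against 30.9% and 42.7% of genes tested. The members were chosen for under 0.5 TPM in untreated CT26, which leaves little room to be lower in LL2. The direction of these calls and of the median therefore follows in part from the choice. This comparison shares the CT26_OK432 libraries with that of CT26NYESO1, so the 2 sets of calls are not independent. The members' median was 0.90 and that of all genes tested −0.09. Krt18 differed by 7.77 (SE 0.243, limma adjusted p = 2.05e-13), Scara3 by 6.20 (SE 0.135) and Eya1 by 3.92 (SE 0.163). Tgfa, at 0.893, 0.753 and 0.911 TPM in LL2_OK432, was low in both tumours and still called higher, by 0.68 (limma adjusted p = 3.45e-05). Foxa1 was called higher by 0.35 (limma adjusted p = 0.0101) but not without LL2_OK432 replicate 1 (0.27, adjusted p = 0.0598). Of all calls in this comparison 41.7% were higher, and 54.9% after quantile normalization, under which 22 members were higher.

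By role, 5 of 6 neuronal structure genes, 5 of 6 ligands, receptors and matrix genes, 3 of 6 vesicle genes, 3 of 5 developmental regulators and 3 of 4 other membrane and structural genes were higher in LL2_OK432 than in CT26_OK432 (limma). Hao1 alone of 5 enzymes and Gm43305 alone of 4 uncharacterised transcripts passed, and 0 of the 2 zinc finger genes did. Tenm3 was the neuronal structure gene and Gpr39 the receptor gene that did not pass, with differences of 0.17 and 0.25. Of the vesicle genes, Cacnb2 (3.07), Rims2 (1.63) and Fer1l6 (1.59) passed, while Syt1, Syt7 and Unc13c differed by −0.06, 0.24 and 0.04. Zfp988 was lower in each LL2_OK432 library than in each CT26_OK432 library, by −0.23 (limma adjusted p = 0.0946).

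Against treated CT26NYESO1, 4 of the 38 genes were called higher in LL2_OK432 and 32 lower (limma), beside 39.8% and 27.4% of genes tested. The members were chosen for a high level in CT26NYESO1, so this direction follows in part from the choice. The libraries did not overlap for 4 members that were higher and 33 that were lower, against 41.1% and 27.9% of genes tested. Their median was −2.57, and that of all genes 0.11. The 4 higher genes were Krt18 by 3.98 (SE 0.243), Scara3 by 1.95 (SE 0.135), Eya1 by 1.37 (SE 0.163) and Nefl by 0.39 (SE 0.122, limma adjusted p = 0.0105). Nefl did not pass after median-of-ratios rescaling (0.26, adjusted p = 0.0626). Ephb3 (0.12, limma adjusted p = 0.557) and Gap43 (−0.29, adjusted p = 0.135) were the 2 that did not pass: Ephb3 measured 8.29, 10.1 and 6.29 TPM in LL2_OK432 and 8.18, 8.48 and 5.7 TPM in CT26NYESO1_OK432, with overlapping ranges. Gap43 passed after rescaling (−0.41, adjusted p = 0.0365) and without CT26_OK432 replicate 1 (−0.29, adjusted p = 0.0331). Of all calls 59.2% were higher, and 49.1% after rescaling, with 3 members higher and 33 lower.

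The members were spread over 17 chromosomes, with at most 4 on one, and Nefm and Nefl were the only pair that overlapped. For each member the nearest tested gene on each side that was no member was taken, 74 genes in all. In CT26NYESO1_OK432 against CT26_OK432, 26 of these neighbours (35.1%) were called higher and 28 (37.8%) lower (limma), with a median of 0.05 and a range from −1.99 to 5.18. Of all genes tested in this comparison 20.9% were higher and 45.6% lower, with a median of −0.20. This background depends on scaling. After median-of-ratios rescaling 5175 of all genes tested were higher and 5391 lower, with a median of −0.0048, and the neighbours were not counted again. Obsl1, a cytoskeletal linker 625 bases from Inha, was higher by 4.77 (limma adjusted p = 2.99e-11), Pawr, next to Syt1, by 2.71, Clu, next to Scara3, by 2.28 and Adra2b, next to Astl, by 1.69. Among the lower neighbours Clec14a, next to Foxa1, differed by −1.99, Abhd4, next to Gm43305, by −1.42, Terf2ip, next to Cntnap4, by −1.37 and Hdac6, next to Glod5, by −1.19. These neighbours were named after their values were seen.

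Start sites of the members were set beside those of other genes. RefSeq (GRCm38.p6) gave a promoter for 23 of the 38 genes, taken here as the 250 bases before the start. The dinucleotide CG, the site of DNA methylation, occurred with a median of 6.5 per member, 15 per tested gene (11235 genes) and 6 per gene over all 27025 genes with a promoter. The ratio of observed to expected CG had a median of 0.401, 0.697 and 0.378 in these sets. A ratio of at least 0.6, as in CpG islands, was found in 4 members (17.4%), 62.3% of genes tested and 33.7% of all genes. The letters TATAAA, on either strand, were in 3 members (13%), 8.58% of genes tested and 14.3% of all, and CCAAT, on either strand, in 9 (39.1%), 40.7% and 37.5%. These are descriptions of sequence, and no methylation or binding was measured.

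The contrast can be read in 4 sequences, the 2 richest and the 2 poorest in CG among the 8 members with 1 promoter and no annotated exon within it, written 5′ to 3′ with each CG in capitals. They were picked by these counts. Tgfa lies on the plus strand at chr6:86194972-86195221 with 19 CG, Lhfpl4 on the minus strand at chr6:113195385-113195634 with 17, Zfp988 on the plus strand at chr4:147305354-147305603 with 1, and Ppef1 on the minus strand at chrX:160719973-160720222 with 2. The Ppef1 window lies within the GENCODE M21 span of that gene, chrX:160623094-160735765, so it is not upstream of the outermost start given there.
Tgfa: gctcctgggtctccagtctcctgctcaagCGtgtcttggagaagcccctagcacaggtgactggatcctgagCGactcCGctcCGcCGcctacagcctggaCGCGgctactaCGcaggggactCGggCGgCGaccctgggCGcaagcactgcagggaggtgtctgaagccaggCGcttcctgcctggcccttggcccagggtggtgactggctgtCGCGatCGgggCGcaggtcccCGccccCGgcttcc
Lhfpl4: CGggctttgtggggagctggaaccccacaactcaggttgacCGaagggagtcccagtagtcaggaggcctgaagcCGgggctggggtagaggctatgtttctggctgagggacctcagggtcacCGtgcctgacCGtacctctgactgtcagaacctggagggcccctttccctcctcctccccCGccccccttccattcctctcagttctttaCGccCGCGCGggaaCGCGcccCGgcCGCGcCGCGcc
Zfp988: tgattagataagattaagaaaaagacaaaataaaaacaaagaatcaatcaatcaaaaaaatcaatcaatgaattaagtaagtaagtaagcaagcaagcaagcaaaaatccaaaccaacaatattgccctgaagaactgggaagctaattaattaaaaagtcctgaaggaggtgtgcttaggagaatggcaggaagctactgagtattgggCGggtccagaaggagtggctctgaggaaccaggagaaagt
Ppef1: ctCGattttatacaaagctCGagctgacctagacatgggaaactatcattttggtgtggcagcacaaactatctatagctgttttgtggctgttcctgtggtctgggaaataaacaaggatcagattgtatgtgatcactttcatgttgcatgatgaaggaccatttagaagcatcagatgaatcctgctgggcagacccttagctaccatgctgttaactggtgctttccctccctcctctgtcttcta
In Tgfa the CG pairs are spread along the window, and in Lhfpl4 most crowd the last bases before the start. Both genes were above 0.5 TPM in LL2_Ctrl, Lhfpl4 on and Tgfa between, and Zfp988 and Ppef1, the CG-poor ones, were off there. Other members did not all divide this way. Pax6, with 15 CG, was on in LL2_Ctrl, but so was Hao1, with 4. Mill2 (2 CG), Thsd4 (3) and Inha (4) were between, while Foxa1, with 21 CG, averaged 0.48 TPM there. A link between CG count and LL2 state was not tested.

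**Figure D5:**
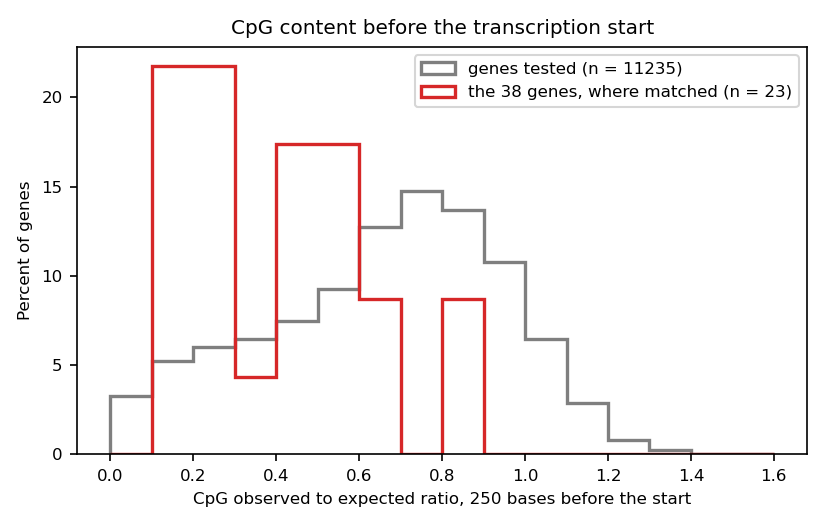
Ratio of observed to expected CG in the 250 bases before the start (horizontal) and percent of genes (vertical), for the 23 members with a promoter (red) and 11235 genes tested (grey). The members have their median at 0.401 and 4 of them at 0.6 or more, while the tested genes have their median at 0.697.

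Some genes stood close to the thresholds of the choice, which were applied to untreated libraries. Just inside the upper one were Ephb3, Greb1l and Glod5, with lowest CT26NYESO1_Ctrl values of 5.09, 5.11 and 5.2 TPM. Just outside it were Inmt, Tfap2a and 5830444B04Rik, with 4.93, 4.81 and 4.74 TPM. Just inside the lower threshold were Zfp988, Scara3 and Gpr39, with highest CT26_Ctrl values of 0.484, 0.467 and 0.467 TPM, all from replicate 3. Just outside it were Krt20, Ptpn13 and Pawr, with 0.503, 0.537 and 0.537 TPM.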

How the data were processed

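Tumour RNA was made into 18 stranded mRNA libraries, per the labels' protocols. The authors deposited 1 table of TPM values. Trim Galore 0.6.5, STAR 2.7.3a, StringTie 2.1.2 and the build mm10 are named per the submitters' processing notes. No source used here gives the annotation, filters or strand setting. Depth cannot be read from TPM, and an exact 0 can be a failed estimate, so such genes are described as listed at 0.

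Groups followed the sample titles. Values were analysed as log2(TPM + 1), with a pseudocount of 1. The 16816 genes with at least 1 TPM in at least 3 libraries, all 38 members among them, were tested two-sided with limma 3.58.1 in R 4.3.3: 1 fit of 6 group means without covariates, 12 residual degrees of freedom, and trended, robust empirical Bayes. Genes under a Benjamini-Hochberg adjusted p of 0.05, over all genes tested, were called. The fit was checked on simulated data.

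The members and lists were chosen with earlier results of these data known, so no list is independent support. Roles were assigned by hand from textbook knowledge after the members were known. Genes were named by a rule: the 15 highest in CT26NYESO1_OK432, up to 4 per role, up to 8 on in LL2 or near a threshold in treated libraries, the 3 nearest each threshold of the choice, and up to 3 per list. The other members, the neighbours and the genes beyond 3 per list or marker set were named after their values were seen. Positions are from GENCODE M21 (mm10) and promoters from RefSeq (GRCm38.p6). Alternatives were other pseudocounts, filters, scalings and thresholds, plain empirical Bayes, a replicate block, fits of 2 groups alone and each library left out.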

Additional observations from a re-analysis of the deposited data

How the results depend on the processing

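All 38 genes were called higher in CT26NYESO1_OK432 than in CT26_OK432 under every alternative run, and 0 members were called between LL2_OK432 and LL2_Ctrl. The first of these results follows largely from the choice of the members. The LL2 result says little about the 15 members that were off in LL2_Ctrl. It also says little about the other members, since very few of all genes tested were called there. The number of members depended on the thresholds: 11 at 10 and 0.5 TPM, 102 at 2 and 0.5, 4 at 5 and 0.1, and 70 at 5 and 1 TPM, and 40 to 50 when 1 untreated library was left out of the choice, 50 without CT26_Ctrl replicate 3. At 10 and 0.1 TPM, 5 members were on in LL2_Ctrl and 8 off. With 1 LL2_Ctrl library left out, 10 to 11 were on and 15 to 16 off. Calls against CT26_OK432 in LL2_OK432 ranged from 20 to 21 when 1 library was left out, and those against CT26NYESO1_OK432 from 36 to 37. With the replicate block the counts of called members were 38, 21, 36 and 0, those of the main analysis. No source used here states that the numbers pair the samples. Deviations of same-numbered libraries correlated from −0.242 to 0.219 over the 4 comparisons. At most 3 of 6 libraries in a comparison correlated best with their own number. With so few libraries these values cannot decide whether samples were paired.

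No called member reversed direction. At a pseudocount of 0.1 Cacnb2 (−0.59, limma adjusted p = 0.0679), Hao1 (−0.57, 0.162) and Nefl (0.41, 0.187) were not called between LL2_OK432 and CT26NYESO1_OK432, while Gcnt4 (1.01, 0.0278) was called higher and Zfp988 (−1.41, 0.00171) lower in LL2_OK432 than in CT26_OK432. Foxa1 was not called when those 2 groups were fitted alone (adjusted p = 0.0688). Depth is unknown, so values near 0 carry no detection limit.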
